A study of Homo sapiens with 10 samples.

Results

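MGST1 and a group of NRF2-linked antioxidant genes were followed across clones of the human colorectal cancer line DLD-1 in which short hairpin RNA (shRNA) had been directed against LMNB1, the gene of the nuclear lamina protein lamin B1. The 9 genes chosen were MGST1, GCLC, GCLM, NQO1, TXNRD1, SRXN1, HMOX1, SLC7A11 and NFE2L2. A gene was read from the array probe that carries its symbol alone, and from the probe with the highest mean where it has several, which gave 7 of the 9, out of 14232 genes measured in this way. NQO1 and NFE2L2 have only probes that the annotation shares with a second gene. These probes were tested as features of their own, are given apart and are left out of the counts of the antioxidant genes. MGST1 was chosen by its measured level, which was higher than in empty vector clones, so its differences from those clones are a description and carry no p-value. The other genes were chosen for their place in the pathway, but with earlier results of these data known.

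NRF2, the protein of NFE2L2, is a transcription factor that the adaptor KEAP1 holds back by marking it for degradation. When electrophiles or oxidants modify KEAP1, NRF2 accumulates, pairs with a small MAF protein and binds antioxidant response elements near genes for glutathione synthesis, thioredoxin reduction, quinone reduction and haem breakdown. MGST1 encodes a membrane-bound glutathione transferase and peroxidase of the endoplasmic reticulum and mitochondria, which acts on lipid hydroperoxides. In the colon these systems handle reactive compounds from food and bacteria, and many carcinomas raise them.

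Gene-level exon arrays, 10 in all, measured the RNA. The knockdown clones were clones 8, 9 and 12, each grown from 1 cell after transfection with V2LHS_62673 and each on 1 array, and clone 2 with V2LHS_62675, on 3 arrays that were averaged to 1 sample. Clone 2 is the name in the descriptions, whereas the titles of these arrays say clone 12 and biological replicates, and the 3 arrays correlated with each other at 0.988 to 0.9945, while arrays of different clones or cultures, clone 8 left out, correlated at 0.986 to 0.994. The negative controls were wild type DLD-1 cells, untransfected and on 1 array, and 3 clones that carried an empty vector, on 1 array each. Transfected cells were kept in puromycin and wild type cells were not, so that vector, drug and cloning cannot be told apart when wild type cells are compared with empty vector clones. Each p-value rests on the spread between samples within groups, which are clones apart from the wild type culture. In knockdown clones against all negative controls, that spread takes in differences between the constructs and between wild type cells and empty vector clones. For SLC7A11 the SD was 0.71 in the negative controls and 0.19 in the empty vector clones. Where clone 2 or wild type cells form a group alone, they have no spread of their own and take that of the other groups.

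The probe for LMNB1, shared by annotation with PCIF1, read 7.79, 7.70 and 7.45 on the log2 scale in clones 8, 9 and 12 and 7.67 in clone 2, against 9.52 in wild type cells and 8.93, 9.17 and 8.84 in the empty vector clones. All knockdown clones lay below all controls. The array of clone 8 stood apart. It correlated with the other 9 arrays at 0.915 to 0.926, while those correlated with each other at 0.986 to 0.9945, and its median was 7.62 against 7.34 to 7.41 on the others. Fold changes and tests are therefore given with and without clone 8. Of 8 colon epithelium markers, 7 were above the low-signal limit, a mean log2 level of 5.96, and KRT20, at 4.78 to 5.44, was below it. Of the markers of other cell types, PTPRC and CD3E of leukocytes, PECAM1 and KDR of endothelium and DCN and LUM of fibroblasts were below it. CD14 and CD68 of leukocytes, CDH5 and VWF of endothelium and COL1A1, COL1A2 and COL3A1 of fibroblasts were above it, with COL1A1 at 7.34 to 8.27 and CD68 at 7.54 to 8.07 over the samples. The mean log2 level of the 5 fibroblast markers was 5.86 to 6.50 in knockdown clones and 5.70 to 5.93 in controls. It was 5.74 to 6.31 and 5.61 to 5.81 for 4 endothelial markers, and 5.80 to 6.18 and 5.78 to 5.87 for 4 leukocyte markers. In all 3 lists the highest value was that of clone 8, and the part of this in the results was not tested. In RNA from whole cultures, fewer cells that use a gene and less RNA per cell cannot be told apart.

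The core searched for, TGACNNNGC, is that of the antioxidant response element, which NRF2 and its MAF partner bind. RefSeq promoter windows of 300 bases (GRCh38.p14), from 250 bases before a start site to 50 after it, were read for 7 of the 9 genes (all but HMOX1 and SLC7A11), 11 windows in all, and were searched on both strands. The core was found in 4 of the 11 windows and in 3 of the 7 genes, GCLM, MGST1 and TXNRD1, against 13.3% of 35116 windows and 16.1% of 27305 genes overall. These matches are shown because they are where the core's letters stand near the starts of these genes. Capitals mark the core, or its reverse complement where the match is on the opposite strand, and each stretch is printed on the strand of the gene. The stretches are chr1:93909446-93909474 on the minus strand for GCLM, with the match 34 bases before the start and opposite, and chr12:16347135-16347163 on the plus strand for MGST1, with the match 31 bases into the transcribed part of 1 of its 3 windows. For TXNRD1, on the plus strand, they are chr12:104215670-104215698 and chr12:104215761-104215789 in 1 window, 99 and 8 bases before that start, and chr12:104286920-104286948 in another, 102 bases before its start, the last 2 being opposite.
GCLM: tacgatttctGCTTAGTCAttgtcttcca
MGST1: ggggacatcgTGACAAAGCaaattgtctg
TXNRD1 first: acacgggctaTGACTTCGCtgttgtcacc
TXNRD1 second: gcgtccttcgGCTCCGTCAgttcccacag
TXNRD1 last: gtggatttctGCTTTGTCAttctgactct
A match is a description of these letters and not evidence of binding. The windows for GCLC, NQO1, SRXN1 and NFE2L2 held none, and sequence outside the windows was not searched.

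MGST1 was at 8.17, 8.91 and 9.23 in clones 8, 9 and 12 of construct V2LHS_62673 and at 9.10, 8.61 and 8.92 on the 3 arrays of clone 2, mean 8.88. Wild type cells had 8.94, and the empty vector clones had 8.30, 8.07 and 7.89. Clones 9, 12 and 2 and the wild type cells were all above the empty vector clones, whereas clone 8 lay within their range. The means were 8.77 ± 0.54 in the V2LHS_62673 clones and 8.08 ± 0.20 in the empty vector clones (SD, n = 3 each), a log2 difference of 0.69 or 1.61-fold, and without clone 8 the difference was 0.99 or 1.98-fold. Clone 2 differed from the empty vector clones by 0.79 (1.73-fold). Wild type cells, which carry no hairpin, differed from the same clones by 0.86 (1.81-fold). These 3 comparisons share their empty vector arrays.

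**Figure D1:**
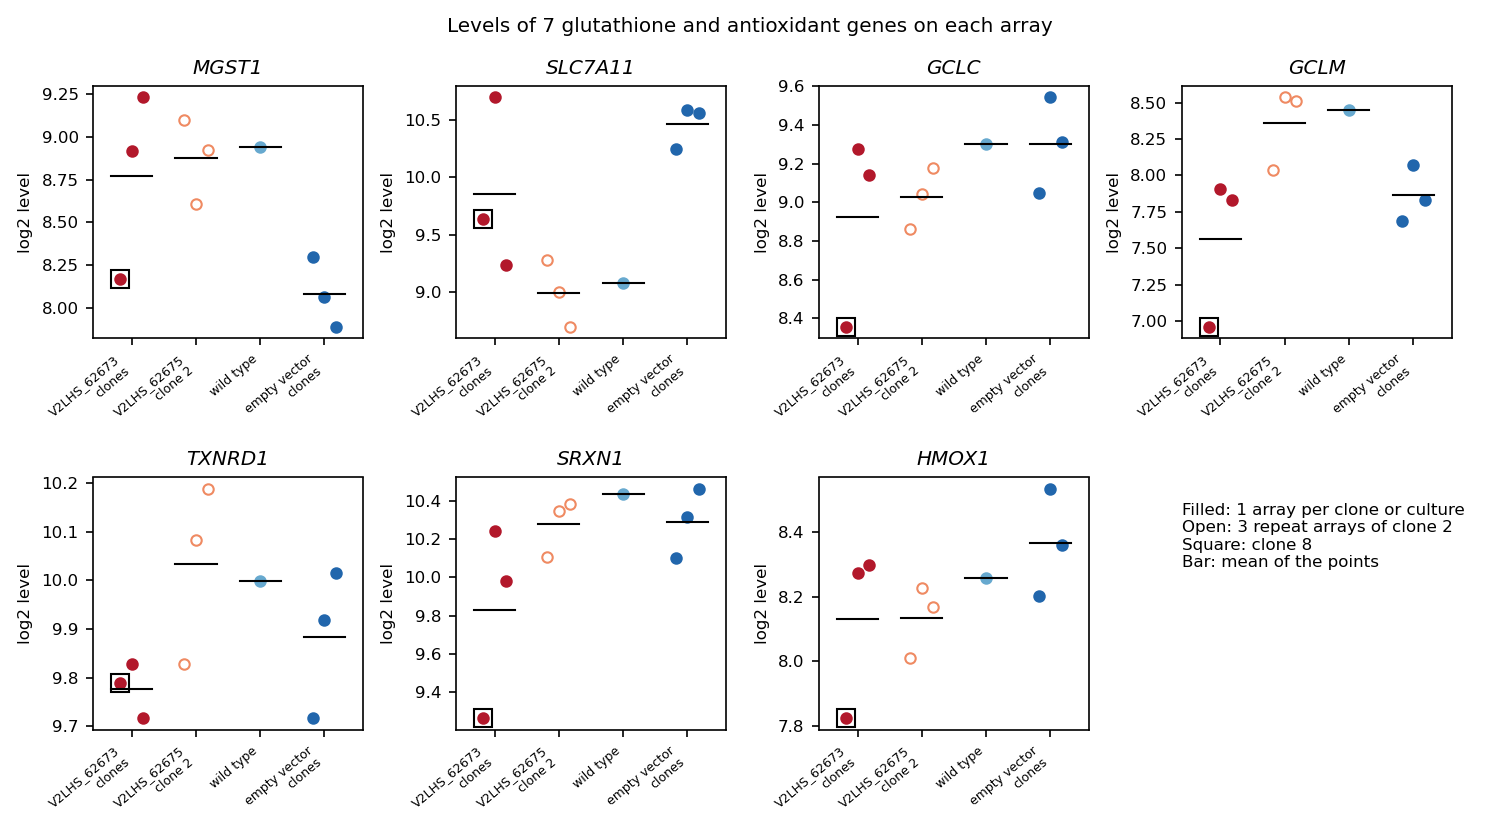
Log2 level (y axis) of each of the 7 genes by sample group (x axis), with filled points for single arrays, open points for the 3 repeat arrays of clone 2, a square around clone 8 and a bar for the mean of the points. MGST1 lies between 8.61 and 9.23 in clones 9, 12 and 2 and wild type cells and between 7.89 and 8.30 in the empty vector clones, while SLC7A11 is lowest in clone 2, wild type cells and clone 12.

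The comparisons of MGST1 without empty vector clones are also a description, since the values that led to its choice enter them. The 4 knockdown clones averaged 8.80 ± 0.45 (SD, n = 4), against 8.94 in wild type cells (n = 1), a log2 difference of -0.14. Without clone 8 the difference was 0.066. Wild type cells lay inside the range of the knockdown clones. Clone 2 differed from the V2LHS_62673 clones by 0.10 with all clones and by -0.20 without clone 8. Between the 4 knockdown clones and all 4 negative controls the difference was 0.50 with all clones and 0.71 without clone 8, and the ranges overlapped through clone 8 and the wild type cells.

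The other 6 genes were tested with limma across 11201 features, and the p-values were adjusted over all of them by the Benjamini-Hochberg method with a threshold of 0.05. In the comparison of knockdown clones with negative controls, 0 of the 6 passed, and the same held for 0% of all features, of which 256 had an unadjusted p under 0.05. None of the 6 genes was among those 256. The shared probe of LMNB1, the target of the hairpins, missed the threshold too, at -1.46 (adjusted p = 0.0604 in limma). Without clone 8 it was at -1.51 (adjusted p = 0.0563). A count of 0 in this comparison therefore does not show that a gene was unchanged. Without clone 8 the comparison again called 0 of the 6 and 0% of all features, with 0 of the 6 among 724 features with an unadjusted p under 0.05. The median log2 difference of the 6 was -0.30 with all clones, where all 6 were below 0, and -0.13 without clone 8, where 5 were. The median over all features was 0.039 with all clones and 0.0050 without clone 8, and 44.0% and 48.1% of them were below 0. In the other 5 comparisons with all clones, 0 of the 6 genes and 0% of the features passed in limma, and an unadjusted p under 0.05 was found only for SLC7A11, in clone 2 and in wild type cells against the empty vector clones.

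Cystine uptake and glutathione synthesis were represented by 3 genes. SLC7A11 encodes the light chain of the cystine-glutamate exchanger, which brings in the cysteine needed for glutathione. It was at 9.64, 10.70 and 9.24 in clones 8, 9 and 12 and at 9.28, 9.00 and 8.70 on the arrays of clone 2, with 9.08 in wild type cells and 10.25, 10.59 and 10.56 in the empty vector clones. Clone 9 lay above every empty vector clone, whereas clones 12 and 2 and wild type cells lay about 1 log2 unit or more below all of them. Clone 2 differed from the empty vector clones by -1.47 (SE 0.51, 95% interval -2.66 to -0.28, adjusted p = 1.00), and by the same amount with SE 0.39 and adjusted p = 0.0677 without clone 8. Wild type cells differed from the same clones by -1.39 (SE 0.51, adjusted p = 1.00, and 0.0783 without clone 8). The V2LHS_62673 clones, at 9.86 ± 0.75, differed from the empty vector clones, at 10.47 ± 0.19 (SD, n = 3 each), by -0.61 (SE 0.36, adjusted p = 0.742), and by -0.50 (SE 0.31, adjusted p = 0.484) without clone 8. This value was -1.03 without clone 9 and -0.30 without clone 12. None of these differences passed. In clone 2 against the empty vector clones, the count without clone 8 was 0 of 6 genes beside 3.74% of all features. In wild type cells it was 0 of 6 beside 3.57%, and in the V2LHS_62673 clones 0 of 6 beside 0.991%.

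The spread of SLC7A11 between samples was wide for this data set. Its SD over the 8 clone-level samples was 0.72, at the 98.2nd percentile of the features tested. MGST1 stood at 0.50, the 91.8th percentile, but it was chosen for a difference between groups, which favours a wide spread. Clones 9 and 12 carry the same construct and differed in SLC7A11 by more than the 3 arrays of clone 2 did, which ranged over 0.58. Clone 2 against the V2LHS_62673 clones gave -0.86 (SE 0.51, interval -2.05 to 0.33, adjusted p = 0.931), with -0.97 (SE 0.42, adjusted p = 0.299) without clone 8 and -0.44 without clone 9. The knockdown clones against wild type cells gave 0.56 (SE 0.49, interval -0.59 to 1.71, adjusted p = 0.968), with 0.56 (SE 0.39, adjusted p = 0.703) without clone 8 and 0.21 without clone 9. Over all knockdown clones and negative controls the difference was -0.48 (SE 0.42, adjusted p = 0.761), and -0.48 (SE 0.46, adjusted p = 0.893) without clone 8. It was -0.83 without clone 9 and -0.26 without clone 2, so its size rested on those clones.

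GCLC and GCLM encode the catalytic and the modifier subunit of glutamate-cysteine ligase, the rate-limiting enzyme of glutathione synthesis. GCLM was at 6.96, 7.91 and 7.83 in clones 8, 9 and 12 and at 8.04, 8.54 and 8.51 on the arrays of clone 2, mean 8.36, with 8.45 in wild type cells and 7.69, 8.07 and 7.83 in the empty vector clones. Clone 2 and the wild type cells were highest, clones 9 and 12 lay within the range of the empty vector clones, and clone 8 was lowest. Clone 2 differed from the empty vector clones by 0.50 (SE 0.39, interval -0.41 to 1.41, adjusted p = 1.00), with SE 0.15 and adjusted p = 0.0953 without clone 8. Wild type cells differed by 0.59 (SE 0.39, adjusted p = 1.00), with SE 0.15 and adjusted p = 0.0587 without clone 8. The difference of the V2LHS_62673 clones was -0.30 (SE 0.27, adjusted p = 0.742) with all clones and 0.0041 (SE 0.12) without clone 8. The knockdown clones against wild type cells gave -0.69 (SE 0.37, adjusted p = 0.968), and -0.42 (SE 0.15, adjusted p = 0.317) without clone 8. Clone 2 against the V2LHS_62673 clones gave 0.80 (SE 0.39, adjusted p = 0.931), and 0.50 (SE 0.16, adjusted p = 0.149) without clone 8. In these last comparisons 0 of the 6 genes passed without clone 8, beside 0.0179% of features for the knockdown clones against wild type cells and 2.15% for clone 2 against the V2LHS_62673 clones. Against the empty vector clones, the unadjusted interval left out 0 in clone 2 and in wild type cells for SLC7A11, below 0 in both fits, and for GCLM, above 0 and without clone 8 only, while the adjusted values missed the threshold.

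GCLC was at 8.36, 9.27 and 9.14 in clones 8, 9 and 12 and at 8.86, 9.04 and 9.18 on the arrays of clone 2, with 9.30 in wild type cells and 9.05, 9.54 and 9.31 in the empty vector clones. Apart from clone 8 the groups lay close together. The knockdown clones, at 8.95 ± 0.41, and the negative controls, at 9.30 ± 0.20 (SD, n = 4 each), differed by -0.35 (SE 0.20, interval -0.81 to 0.10, adjusted p = 0.761), and by -0.15 (SE 0.12, adjusted p = 0.848) without clone 8.

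**Figure D2:**
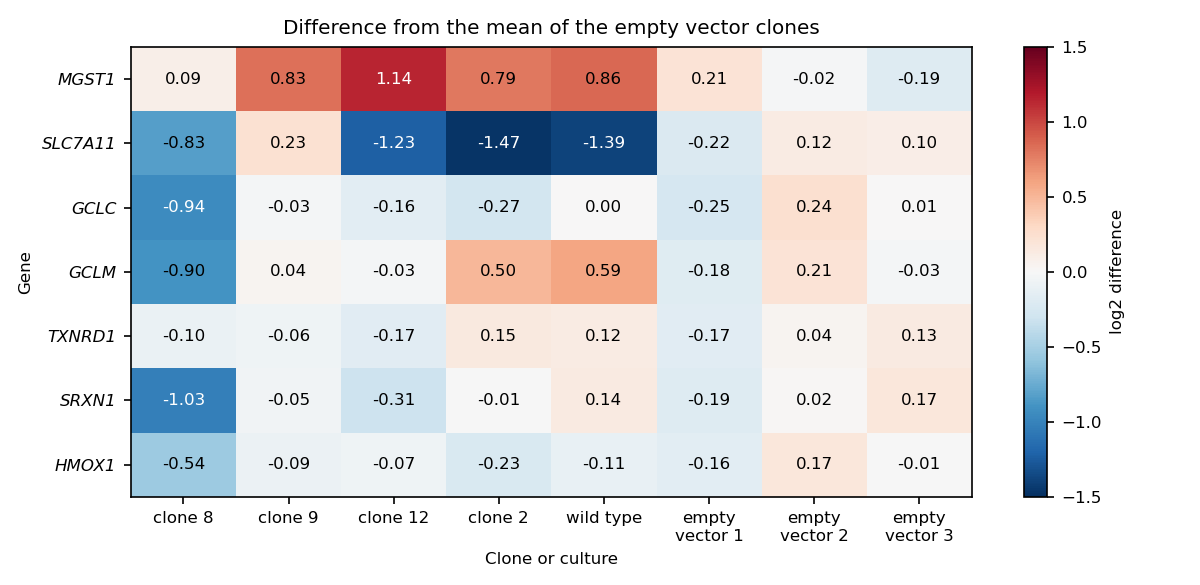
Log2 difference of each gene (rows) from the mean of the 3 empty vector clones in each clone or culture (columns), red for higher and blue for lower. MGST1 stands at 0.79 to 1.14 in clones 9, 12 and 2 and wild type cells, SLC7A11 at -1.23 to -1.47 in clones 12 and 2 and wild type cells, and clone 8 is below 0 for every gene but MGST1.

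Thioredoxin and peroxiredoxin recycling was represented by TXNRD1, the cytosolic thioredoxin reductase, and SRXN1, sulfiredoxin, which restores overoxidised peroxiredoxins. TXNRD1 had 9.79, 9.83 and 9.72 in clones 8, 9 and 12 and 9.83, 10.08 and 10.19 on the arrays of clone 2, with 10.00 in wild type cells and 9.72, 9.92 and 10.02 in the empty vector clones. Its SD over the 8 samples was 0.13, at the 9.78th percentile of the features tested, so it varied least of the 7 genes. The 3 arrays of clone 2 had an SD of 0.19, more than the 8 samples had. The knockdown clones differed from the negative controls by -0.071 (SE 0.13, interval -0.35 to 0.21, adjusted p = 0.806), and by -0.053 (SE 0.10, adjusted p = 0.960) without clone 8.

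SRXN1 had 9.26, 10.25 and 9.98 in clones 8, 9 and 12 and 10.11, 10.35 and 10.38 on the arrays of clone 2, with 10.44 in wild type cells and 10.10, 10.31 and 10.46 in the empty vector clones. Clone 8 was below every other sample, and the others lay between 9.98 and 10.46. The difference between knockdown clones and negative controls was -0.39 (SE 0.22, interval -0.88 to 0.10, adjusted p = 0.761), and -0.16 (SE 0.11, adjusted p = 0.836) without clone 8. HMOX1 encodes haem oxygenase, which breaks haem down to biliverdin, iron and carbon monoxide. It had 7.82, 8.27 and 8.30 in clones 8, 9 and 12 and 8.01, 8.23 and 8.17 on the arrays of clone 2, with 8.26 in wild type cells and 8.20, 8.53 and 8.36 in the empty vector clones. The difference between knockdown clones and negative controls was -0.20 (SE 0.14, interval -0.53 to 0.12, adjusted p = 0.761), and -0.10 (SE 0.10, adjusted p = 0.883) without clone 8.

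**Figure D3:**
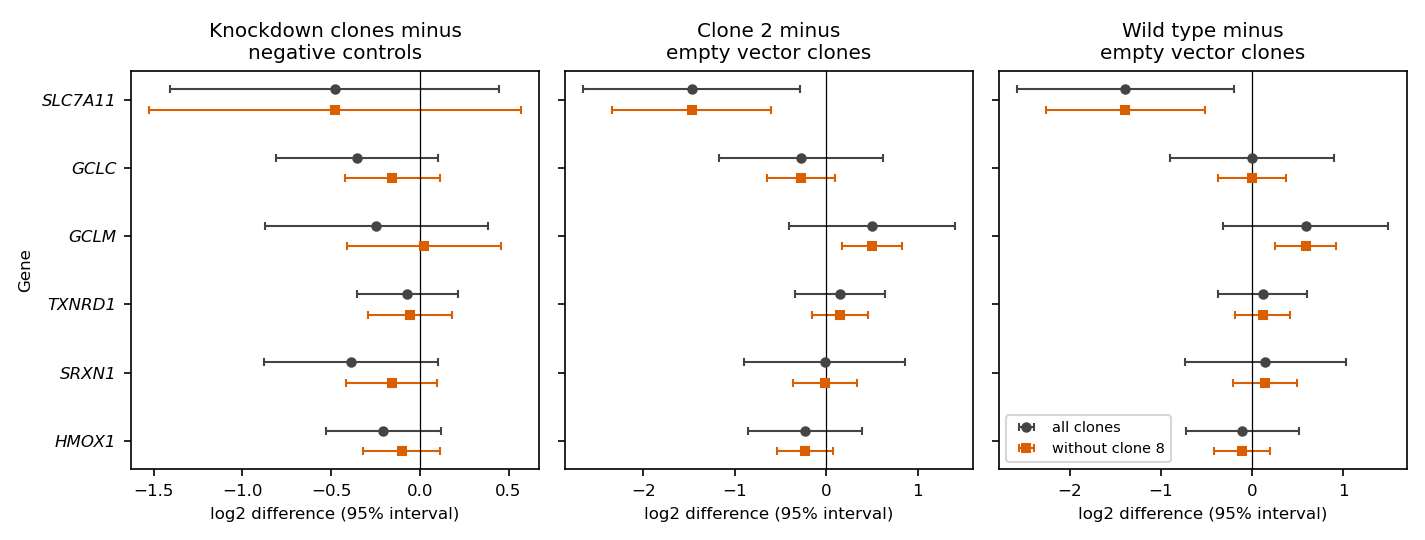
Log2 differences (x axis) of the 6 genes other than MGST1 (y axis) with 95% intervals from limma, not adjusted for the number of features, with all clones (grey circles) and without clone 8 (orange squares). In knockdown clones against negative controls every interval includes 0, while in clone 2 and in wild type cells against the empty vector clones SLC7A11 lies below 0 in both fits and GCLM above 0 without clone 8.

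The remaining 2 genes could be read only through shared probes. The probe annotated to NQO1, a quinone reductase often used as a marker of NRF2 activity, and to NFAT5 had 11.08, 11.94 and 11.54 in clones 8, 9 and 12, a mean of 12.16 in clone 2, 12.29 in wild type cells, and 11.55, 12.00 and 11.98 in the empty vector clones. Clone 2 and the wild type cells were highest and clone 8 lowest, as for GCLM. The probe annotated to NFE2L2 and the microRNA gene MIR3128 had 8.81, 10.11 and 10.02 in clones 8, 9 and 12, a mean of 9.92 in clone 2, 9.85 in wild type cells, and 9.98, 10.11 and 9.92 in the empty vector clones. Clone 8 lay more than 1 log2 unit below all other samples, which spanned 9.85 to 10.11. In knockdown clones against negative controls the NQO1 probe differed by -0.28 (SE 0.24, adjusted p = 0.761) and the NFE2L2 probe by -0.25 (SE 0.26, adjusted p = 0.761), and without clone 8 the values were -0.078 and 0.0545. The signal of these probes is not specific to 1 gene.

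Clone 8 had the lowest values of most of these genes. Relative to the mean of the empty vector clones it was lower for all 6 genes other than MGST1, by 0.10 for TXNRD1 to 1.03 for SRXN1, with a median of -0.87. Over all 11201 features the median of clone 8 in the same comparison was 0.18, and 41.9% lay below 0. Among the 4431 features with a mean level in the range of the 7 genes, 8.02 to 10.26, the median was -0.28, 64.3% lay below 0, and the lowest 10% were below -1.33. The SD over probes was 1.92 on the array of clone 8 and 2.08 to 2.14 on the others. The part of the narrower scale of that array in its low values was not tested. In the other samples the median of the 6 genes against the empty vector mean was -0.038 in clone 9, -0.16 in clone 12, -0.12 in clone 2 and 0.056 in wild type cells, and in empty vector clones 1, 2 and 3 it was -0.18, 0.15 and 0.053.

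The genes whose levels followed MGST1 most closely were ranked by Pearson's r over the 8 clone-level samples among 11197 genes. They were DOK3, an adaptor of immune receptor signalling (r = 0.985), the zinc finger gene ZNF45 (0.951), the replication factor gene MCM10 (0.948), the transporter SLC60A2 (0.947) and the centriole gene CCP110 (0.945). DOK3 had 7.20, 7.98 and 8.29 in clones 8, 9 and 12, 7.84 in clone 2, 7.80 in wild type cells, and 7.34, 7.21 and 7.06 in the empty vector clones. Over the 7 samples without clone 8, the RNA-binding protein gene CELF1 (0.994), DOK3 (0.985), SMYD4 (0.983), JMJD6 (0.977) and CIPC (0.976) ranked highest, and 137 genes exceeded 0.9. The samples share groups and few degrees of freedom, so that many genes reach a high r. For the other 6 antioxidant genes, r with MGST1 over 8 samples ran from -0.61 for SLC7A11 to 0.43 for GCLM. The highest of 11197 values are no yardstick for these 6, and the spread of r over all genes was not determined.

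Other genes of the same pathways were taken from 6 lists with 110 entries, of which 79 have a single-symbol probe and 73 were above the low-signal limit. In knockdown clones against negative controls, 0 of the 73 passed in limma with all clones or without clone 8, beside 0% of all features. An unadjusted p under 0.05 was found for 2 of the 73 with all clones, beside 256 of 11201 features. Without clone 8 it was found for 4 of the 73, beside 724 of 11201. The median difference of the 73 was -0.047 with all clones and -0.0405 without clone 8. Of the 73, 40 were below 0 with all clones (54.8%, beside 44.0% of all features). Without clone 8 there were 44 (60.3%, beside 48.1%).

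Among glutathione transferases and relatives of MGST1 (12 measured, 5 higher and 7 lower, median -0.067), MGST2 differed by 0.33 (SE 0.18), or 0.17 without clone 8, and MGST3 by -0.27 (SE 0.14), or -0.23 without clone 8. Both are membrane-bound proteins of the MGST1 family. The soluble transferases GSTT1 (-0.36, SE 0.17) and GSTK1 (-0.37, SE 0.18) stood lower, at -0.26 and -0.45 without clone 8. Glutathione genes (18 measured, 7 higher and 11 lower, median -0.076) included the intestinal glutathione peroxidase GPX2 at -0.87 (SE 0.27, unadjusted p = 0.00907, adjusted p = 0.761) and at -0.82 (SE 0.29, adjusted p = 0.747) without clone 8. GPX2 had 6.67, 7.66 and 6.47 in clones 8, 9 and 12, 6.47 in clone 2, 7.60 in wild type cells, and 7.34, 8.02 and 7.79 in the empty vector clones. It was low in 3 of the 4 knockdown clones and within the range of the controls in clone 9. GPX8 (-0.55, SE 0.34), GLRX3 (0.25, SE 0.15) and the glutathione reductase GSR (0.14, SE 0.11) followed, each with adjusted p = 0.761, and stood at -0.14, 0.13 and 0.16 without clone 8. GPX8 was at 6.43 in clone 8 and at 7.88 to 8.32 in all other samples.

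In the thioredoxin and peroxiredoxin list (11 measured, 6 higher and 5 lower, median 0.035), the thioredoxin inhibitor TXNIP stood at -0.75 (SE 0.46) with all clones and at -1.12 (SE 0.40, adjusted p = 0.751) without clone 8. It had 9.15, 7.68 and 7.29 in clones 8, 9 and 12, 8.05 in clone 2, 8.67 in wild type cells, and 7.65, 9.38 and 9.48 in the empty vector clones, so that both groups were wide and overlapped. PRDX2 (0.26, SE 0.17), PRDX6 (-0.20, SE 0.25) and MSRB1 (0.098, SE 0.14) were closer to 0. Without clone 8 they stood at 0.10, 0.087 and 0.040, so that PRDX6 was lower only with clone 8. Among superoxide and peroxide enzymes (6 measured, 4 higher and 2 lower, median 0.15), catalase, CAT, stood at -0.39 (SE 0.20), PARK7 at 0.38 (SE 0.29), SOD3 at 0.22 (SE 0.15) and SOD1 at 0.20 (SE 0.17). Without clone 8 these 4 values were -0.19, 0.047, 0.077 and 0.036, and the median of the list was -0.042.

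For NADPH supply and further NRF2 targets (17 measured, 6 higher and 11 lower, median -0.095), UGDH, which makes UDP-glucuronate for conjugation, had the smallest p of the 73 genes. It had 10.40, 10.59 and 11.05 in clones 8, 9 and 12 and 10.84 in clone 2, against 11.24 in wild type cells and 11.20, 11.41 and 11.23 in the empty vector clones. Each knockdown clone was below each control, but such a split was not particular to UGDH. For USP11 each knockdown clone, at 8.38 to 8.75, was above each control, at 8.19 to 8.36. The share of all features with such a split was not determined. Both genes were named for a small p in this same comparison, so the splits are a description only. The difference of UGDH was -0.55 (SE 0.15, unadjusted p = 0.00543, adjusted p = 0.761), and -0.44 (SE 0.11, adjusted p = 0.646) without clone 8. TKT of the pentose phosphate pathway stood at -0.42 (SE 0.25), the haem transporter SLC48A1 at 0.30 (SE 0.21) and PIR at 0.20 (SE 0.14). Without clone 8 these 3 values were -0.42, 0.071 and 0.13. Among NRF2 regulators and partners (9 measured, 5 higher and 4 lower, median 0.018), the small MAF gene MAFG stood at 0.36 (SE 0.19), GSK3B at -0.35 (SE 0.24), the ubiquitin ligase scaffold CUL3 at -0.30 (SE 0.18) and the deubiquitinase USP11 at 0.20 (SE 0.13). Without clone 8 they were 0.18, -0.088, -0.13 and 0.11, and the median of the list was -0.0051.

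**Figure D4:**
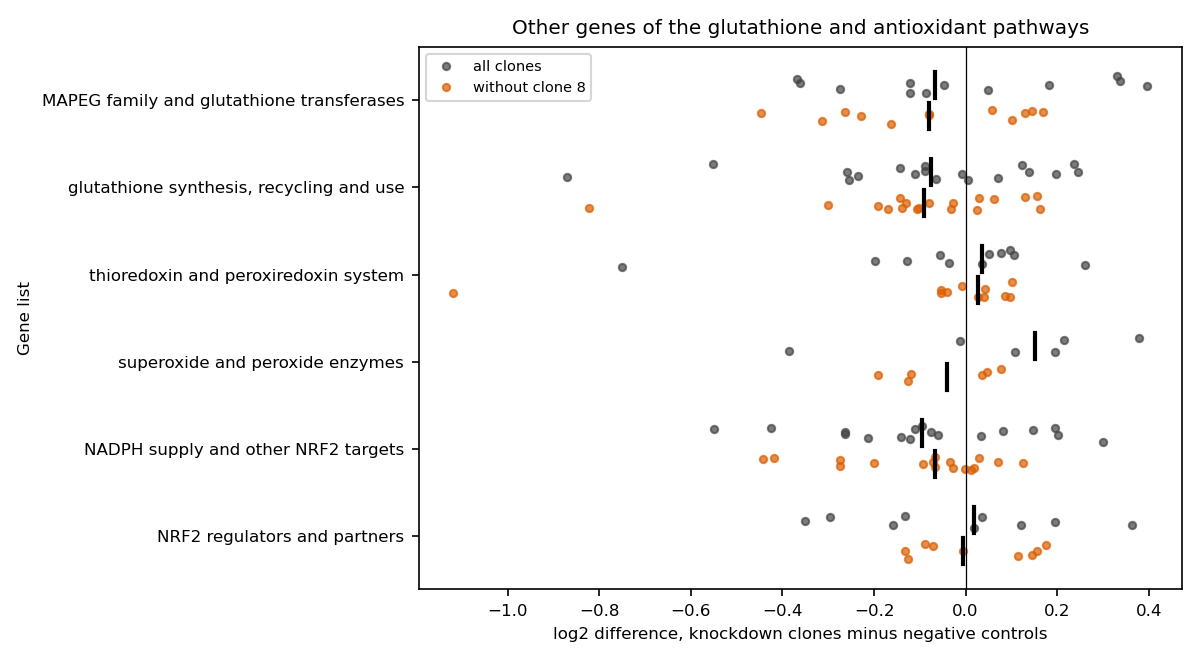
Log2 difference between knockdown clones and negative controls (x axis) for 73 measured genes of 6 pathway lists (y axis), with all clones in grey and without clone 8 in orange, and a black bar for the median of each list. List medians lie between -0.095 and 0.15 with all clones and between -0.091 and 0.027 without clone 8.

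In the comparisons with the empty vector clones, members of these lists passed in limma without clone 8 and none passed with all clones. Clones 9 and 12 of V2LHS_62673 had 2 of 73 lower (2.74%, beside 0.991% of all features), GSTK1, which fell by 0.71 (adjusted p = 0.0229), and GSTA4, which fell by 0.57 (adjusted p = 0.0476). Clone 2 had 3 of 73 (4.11%, beside 3.74%). The bile salt and conjugate exporter ABCC3 fell by 1.06 (adjusted p = 0.0292), the cytosolic isocitrate dehydrogenase IDH1 fell by 0.49 (0.0422) and KEAP1 rose by 0.57 (0.0314). Wild type cells had 7 of 73 (9.59%, beside 3.57%), 3 higher and 4 lower. On the 1 array of wild type cells, KEAP1 was higher than in the empty vector clones by 0.56, the gamma-glutamylcyclotransferase GGCT by 0.68 and PRDX4 by 0.52. The glutathione-degrading enzyme CHAC1 was lower there by 1.31, ABCC3 by 1.16, MSRB2 by 0.95 and IDH1 by 0.48. KEAP1, the inhibitor of NRF2, was at 8.91, 9.39 and 9.26 in clones 8, 9 and 12, 9.74 in clone 2, 9.73 in wild type cells, and 9.14, 9.24 and 9.12 in the empty vector clones. These comparisons share the same 3 empty vector arrays.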

How the data were processed

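Per the labels, total RNA depleted of ribosomal RNA was hybridised to exon arrays. The log2 values were used as the authors deposited them, with a single value per array for every one of 22011 transcript clusters, here called probes. That the scale is log2 was inferred from its range, and how the authors corrected, normalized and summarised the signals is not stated in the labels. A single gene symbol is annotated to 14432 probes, more than 1 to 2408 and no symbol to 5171. A RefSeq gene table (GRCh38.p14) held 14404 of the single-symbol probes by gene identifier. Genes whose mean fell below 5.96, the 25th percentile over probes, were left out, which kept 11198 genes and all 7 antioxidant genes with a probe of their own. The shared probes of LMNB1, NQO1 and NFE2L2 were added as 3 features.

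With the arrays of clone 2 averaged there were 8 samples. limma 3.58.1 (lmFit, eBayes) in R 4.3.3 compared 4 knockdown clones with 4 controls (6 residual degrees of freedom, prior 3.91). A fit of the 4 groups made the other 5 comparisons (4 residual, prior 3.26, or 3 and 7.62 without clone 8). Tests were two-sided with Benjamini-Hochberg adjustment. Clone 2 and the wild type culture count as 1 sample each and are taken to vary as the other groups do. The design had counted 8 genes beside MGST1, of which 6 have a probe of their own, and tests of MGST1 in 2 comparisons, which are not reported because its choice used those values. The antioxidant genes, the pathway lists and the cell type markers were chosen with earlier results of these data known. Named from each list were up to 4 genes with the smallest p in knockdown clones against negative controls and any gene past the threshold in a comparison, with or without clone 8, and beside them the 5 genes most like MGST1 in each ranking. Alternatives were quantile normalization, median centring, a stricter filter or none, averaged probes per gene, array weights, a prior that was trended and robust, every array as a replicate, clone or replicate number as a block, empty vector clones as the only controls, and leaving out each sample or array. The code was tested on simulated data. Precision is limited by the few arrays.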

Additional observations from a re-analysis of the deposited data

Results flagged for a closer look

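The shared probe of NFE2L2 and MIR3128 was at 8.81 in clone 8, far from the other knockdown clones at 9.92 to 10.11, with a gap that made up 0.856 of the range of the group. Of 20 groups of 4 values examined in this way, this was the only such case, and chance gives about 1 in 20. TXNRD1 was 0.15 above the empty vector mean in clone 2 and below it in all 3 V2LHS_62673 clones (-0.17 to -0.056). The empty vector clones themselves ran from -0.17 to 0.13 around that mean. Array 1 of clone 2, at 9.83, was below the empty vector mean of 9.88 and level with clone 9. The difference between the constructs was 0.26 (SE 0.21, interval -0.23 to 0.75, adjusted p = 0.931 in limma), and 0.26 (adjusted p = 0.463) without clone 8, which misses the threshold.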

How the results depend on the processing

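Over 28 results and 548 recomputed values, 534 kept their direction and side of the threshold. Some of them could not change. Leaving out wild type cells or arrays of clone 2 leaves V2LHS_62673 against the empty vector clones as it was, since groups of 1 sample add no spread. The MGST1 differences from the empty vector clones have no threshold, and their direction entered its choice. The count of the 6 antioxidant genes past the threshold stayed 0 under every alternative, except in clone 2 against the empty vector clones. There array weights called 1, SLC7A11 (-1.45, adjusted p = 0.0489). Every array as a replicate with the replicate number as a block, over clone 2 and the empty vector clones alone, called 2, SLC7A11 (-1.47, adjusted p = 1.65e-04) and GCLM (0.50, adjusted p = 0.0203), but it treats 3 arrays of 1 clone as independent. Same-numbered arrays correlated in their deviations at 0.029, -0.15 and -0.23, so the numbers do not pair the samples, and the fit called 946 features with the block and 1030 without it. The difference of GCLM turned to 0.086 with array weights in knockdown clones against negative controls (-0.35 to 0.022 when 1 array was left out, positive without clone 8, and -0.44 without clone 2) and to 0.0090 in the V2LHS_62673 clones against the empty vector clones (-0.47 to 0.0041, positive without clone 8). That of MGST1 turned to -0.13 with array weights between clone 2 and the V2LHS_62673 clones (-0.20 to 0.33 over the omissions, negative without clone 8 or array 1 of clone 2) and to 0.031 between knockdown clones and wild type cells (-0.29 to 0.066, positive without clone 8). The cause was not tested. Against the empty vector clones the difference of MGST1 was 0.46 to 0.99 for V2LHS_62673, 0.68 to 0.93 for clone 2 and 0.76 to 0.96 for wild type cells. MGST1 was chosen for being higher than in those clones, so the sign of these values is no separate result. Features called over the alternatives ran from 0 to 7 in knockdown clones against negative controls, 0 to 338 for V2LHS_62673, 0 to 946 for clone 2 and 0 to 479 for wild type cells against the empty vector clones, 0 to 371 between the constructs and 0 to 68 for knockdown clones against wild type cells, against 0 in each with all clones.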
